A study of Mus musculus with 281 samples.

Results

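10 genes of purinergic signalling were followed through single cells of the mouse stria vascularis: the ATP-gated channels P2rx2, P2rx3, P2rx4 and P2rx7, the G protein-coupled nucleotide receptors P2ry1, P2ry2 and P2ry14, and the ectonucleotidases Entpd1, Entpd2 and Entpd3. They were taken by name, and all 10 were found among the 47752 genes of the deposited gene table.

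ATP and UTP released by cells act on their neighbours through P2X receptors, which are cation channels opened by ATP, and P2Y receptors, which signal through G proteins and often release calcium from stores. Ectonucleotidases on the cell surface take phosphates off the released nucleotides and so end or redirect the signal. In the cochlea, P2X2 channels in cells that border the endolymph are known to carry a cation current that shunts the endocochlear potential when extracellular ATP is raised, and variants of the human gene cause hearing loss.

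The stria vascularis, the tissue of the lateral cochlear wall that makes the endocochlear potential, was loosened with collagenase, and its cells were aspirated one at a time with a glass micropipette and profiled with the Smart-Seq2 protocol, which copies and amplifies full-length poly-adenylated RNA without molecular identifiers. The mice were male, on the 129S6 background, and carried either both working copies of Slc26a4 (Slc26a4+/+, called WT), 1 copy (Slc26a4+/-) or none (Slc26a4-/-). Slc26a4 encodes pendrin, an anion exchanger that secretes bicarbonate into endolymph. The germline loss is present in every cell of the animal throughout life, and its inner ear is malformed. There were 40 Slc26a4+/- cells from postnatal days 26 to 33 and 69 Slc26a4-/- cells from days 24 to 44, and all other cells were WT, from days 22 to 42. No label ties a cell to a mouse, so each genotype counted as 1 sample, and differences between genotypes are given as values without a test unless a test over collection sessions is named.

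Levels are counts per 1000000 counts of the cell (CPM). A cell held 1848 to 7932729 counts, with a median of 1312950, and 20 WT cells held fewer than 100000. The cells were clustered without the 10 genes, and clusters were named from marker genes: 86 cells were intermediate cell-like (IMC-like), 35 spindle cell-like (SC-like), 36 root cell-like (RC-like) and 21 marginal cell-like (MC-like). IMC-like cells were led by Dct and Tyr, SC-like cells by Wfdc18, Anxa1 and Krt8, RC-like cells by Epyc and Lum, and MC-like cells by Spp1, Kcne1 and Kcnq1. A cluster of 86 cells led by Galntl6, in which 73.3% of the cells scored highest for intermediate cell markers and the median depth was 723828 counts, and a cluster of 17 cells led by Vmo1, Cndp2, Crhbp, Rnase1 and Slc26a7 were given no cell type. The cells came from 4 run dates: the first held 52 WT cells and 1 Slc26a4-/- cell, the second 26 WT and 46 Slc26a4-/- cells, the third 75 WT cells, and the fourth 19 WT, 40 Slc26a4+/- and 22 Slc26a4-/- cells.

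P2rx2 was the member with the highest level in any named cell type, and its RNA is spliced into forms that differ in the intracellular tail of the channel. The gene is read from the minus strand at chr5:110339812-110343212 of GRCm38. Transcript ENSMUST00000112478.7, the short form, lacks a stretch of 69 codons that stays in the last exon of the long form, which is the sum of ENSMUST00000058016.15, ENSMUST00000195985.4 and ENSMUST00000200214.1. The stretch is shown in capitals, in the direction of the gene, with 15 bases on each side in lower case. It is the reference sequence that separates the long from the short form of the channel.
P2rx2 stretch absent from the short form, chr5:110340298-110340504: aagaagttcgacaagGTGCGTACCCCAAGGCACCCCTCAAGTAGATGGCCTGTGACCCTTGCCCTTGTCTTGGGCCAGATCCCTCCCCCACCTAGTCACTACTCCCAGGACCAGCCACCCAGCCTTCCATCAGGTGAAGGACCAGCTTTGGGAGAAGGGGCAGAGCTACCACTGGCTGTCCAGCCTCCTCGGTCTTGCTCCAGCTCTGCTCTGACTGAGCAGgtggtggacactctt
A second stretch, of 36 bases or 12 codons, is held by ENSMUST00000058016.15 and is absent from the short form, from ENSMUST00000195985.4 and from ENSMUST00000200037.4.
P2rx2 stretch present in ENSMUST00000058016.15, chr5:110342636-110342671: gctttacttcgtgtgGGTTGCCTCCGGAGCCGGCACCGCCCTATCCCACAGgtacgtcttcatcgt
The annotated coding sequences come to 497 residues for ENSMUST00000058016.15, 416 for the short form, 485 for ENSMUST00000195985.4, 395 for ENSMUST00000200037.4 and 398 for ENSMUST00000200214.1.

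P2rx2 marked SC-like cells. In the 23 WT SC-like cells its level ran from 0.268 to 5274 CPM with a median of 2034 and a mean of 2229 CPM. The mean was 44.5 CPM in 14 MC-like cells, 23.3 CPM in 17 RC-like cells and 1.63 CPM in 40 IMC-like cells. SC-like cells were therefore higher than the next type by 5.62 on the log2 scale, and 20 of the 23 held at least 10 P2rx2 counts (86.96%, exact binomial 95% interval 66.4 to 97.2%, which covers counting error only). Of the other named WT cells, 2 of 14 MC-like, 2 of 17 RC-like and 1 of 40 IMC-like cells reached 10 counts. Grouped by collection session, the set of cells that share a run date, a day number, an age and a genotype, WT SC-like cells had session means between 0.268 and 4590 CPM over 12 sessions, and in 11 of the 12 the mean was above that of every other named type picked in the same session. Among 11388 genes at 10 CPM or more in a named WT type, 8.41% were at least 2-fold higher in SC-like cells than in every other type, and P2rx2 and Entpd3 were the members in that share. P2rx2 was among the 10 leading genes of the SC-like cluster although clustering did not use it.

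**Figure D1:**
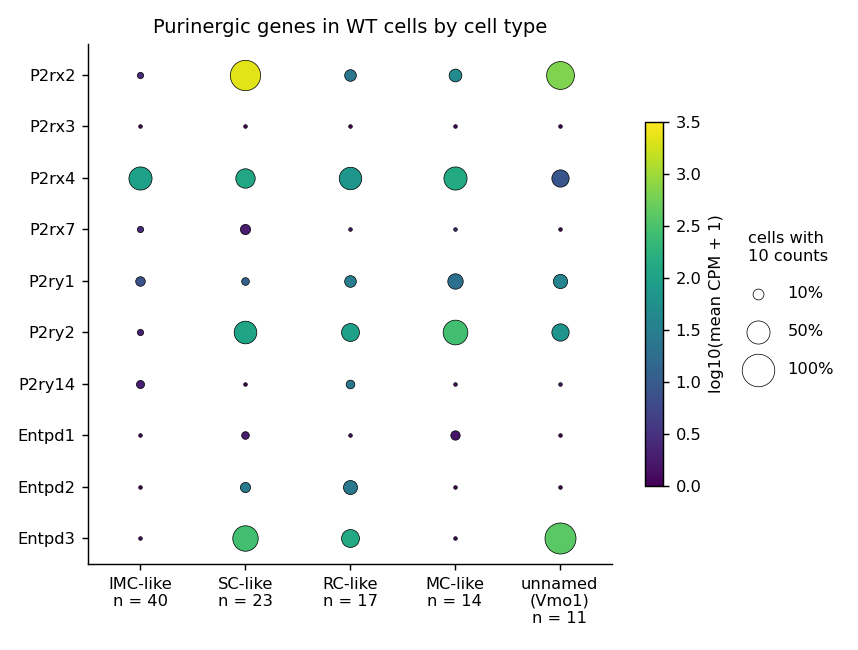
Mean level of the 10 genes (colour, log10 of mean CPM + 1) and share of cells with at least 10 counts (size of the dot) in WT cells of 4 named cell types and the unnamed cluster led by Vmo1. P2rx2 in SC-like cells was the highest value at 2229 CPM, P2rx4 was found at a similar level in the 4 named types, and P2rx3, P2rx7 and Entpd1 were below 2 CPM in each of them.

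A few SC-like cells held almost no P2rx2, so the level was not uniform within the cluster. With all cells cut at random to 100000 counts, a depth that 2 WT SC-like cells and 1 RC-like cell lacked, P2rx2 was found in 20 of 21 WT SC-like cells, 4 of 16 RC-like cells, 4 of 14 MC-like cells and 4 of 40 IMC-like cells. The unnamed cluster led by Vmo1 and Slc26a7 came next to SC-like cells: P2rx2 ran from 0 to 1846 CPM in its 11 WT cells with a mean of 662 CPM, and 10 counts or more were held by 8 of the 11. Of the 11388 genes, 34.3% had a highest type at least 2-fold above the next. P2rx2, P2ry2, P2ry14 and Entpd3 were the 4 members that did, out of the 7 members that reached 10 CPM in a named WT type.

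The other P2X channels differed from P2rx2 in being either shared among types or near 0. P2rx4, a channel found in many tissues and partly held in lysosomes, had means of 129 CPM in MC-like, 120 CPM in SC-like, 94.7 CPM in IMC-like and 68.9 CPM in RC-like WT cells, and neighbours in this order did not differ beyond the spread of their sessions. At least 1 count was found in 31 of 40 IMC-like, 17 of 23 SC-like, 13 of 17 RC-like and 10 of 14 MC-like WT cells, and 10 counts in 20, 8, 8 and 7 of them. P2rx7, a channel of immune cells that opens at high ATP, had no mean above 1.58 CPM in a named WT type. P2rx3, known from sensory neurons, had no mean above 0.13 CPM and reached 10 counts in 1 cell, a WT cell of the unnamed Galntl6 cluster at 320 CPM. P2rx3 overlaps Ssrp1 on the other strand, and the library kit keeps no strand.

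Among the P2Y receptors, P2ry2 was the member most seen outside intermediate cells. P2Y2 responds to ATP and UTP and signals through Gq. In the 14 WT MC-like cells it ran from 0 to 1134 CPM with a median of 87.3 and a mean of 270.9 CPM, and 8 of the 14 held 10 counts. SC-like cells had a mean of 110.8 CPM (11 of 23 cells), RC-like cells 93.7 CPM (5 of 17) and IMC-like cells 1.13 CPM (1 of 40). MC-like cells were higher than SC-like cells by 1.28 on the log2 scale, less than the SD of log2 session means within MC-like cells (3.99 over 8 sessions), and the mean of MC-like cells was highest in 4 of 7 sessions. A lead of 2-fold for MC-like cells was seen in 6.20% of the 11388 genes.

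P2ry1 and P2ry14 were carried by few cells. P2ry1, an ADP receptor, had WT means of 28.8 CPM in RC-like, 18.1 CPM in MC-like, 11.8 CPM in SC-like and 6.48 CPM in IMC-like cells, and no more than 3 cells of any of these types reached 10 counts. P2ry14, a receptor for UDP-glucose, had a mean of 23.4 CPM in RC-like WT cells that came from 1 cell at 392 CPM, and lay under 1 CPM in the other 3 types. P2ry14 lies inside Med12l and P2ry1 overlaps Gm37035, each on the other strand, so reads from those genes cannot be told apart by strand.

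Among Entpd1, Entpd2 and Entpd3, Entpd3 had the highest mean in SC-like cells. It encodes a membrane enzyme that splits ATP and ADP outside the cell. The 23 WT SC-like cells ran from 0 to 1507 CPM with a median of 260 and a mean of 275.9 CPM. At least 10 counts were held by 14 of them (60.9%, interval 38.5 to 80.3%). In RC-like cells the mean was 126.9 CPM with a median of 0 and a highest cell of 1424 CPM (5 of 17 cells), and IMC-like and MC-like means were 0.24 and 0.17 CPM with no cell at 10 counts. SC-like cells were higher than RC-like cells by 1.11 on the log2 scale, less than the SD of log2 session means in either type (3.62 and 3.75), and SC-like cells were highest in 9 of 12 sessions. The cluster led by Vmo1 had a mean of 399 CPM, with 10 of 11 WT cells at 10 counts.

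Entpd2, which favours ATP over ADP, was found in the same types but in fewer cells: 24.9 CPM in SC-like (2 of 23 cells), 23.2 CPM in RC-like (3 of 17) and 0.03 CPM or less in MC-like and IMC-like WT cells. Entpd1, also called CD39 and typical of vessels and immune cells, had no mean above 0.91 CPM in a named WT type, and its highest cell, at 787 CPM, lay in the Galntl6 cluster. Entpd2 overlaps Npdc1 and Entpd1 overlaps 3 other annotated genes, all on the same strand.

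Levels can be set between genes only per transcript length. As TPM, which scale counts by transcript length before setting each cell to the same total, in the WT type where each member was highest, P2rx2 stood at 1805, P2ry2 at 143.1, P2rx4 at 123.5, Entpd3 at 117.1, P2ry14 at 34.99, Entpd2 at 19.1 and P2ry1 at 14.2. P2rx7, Entpd1 and P2rx3 stood at 5.79, 0.66 and 0.40 TPM. Over the cells of all types and genotypes, 10 counts were reached by P2rx4 in the most cells, by P2rx2 in 67, P2ry2 in 56, Entpd3 in 52, P2ry1 in 32, P2rx7 in 16, Entpd2 in 14, Entpd1 in 10, P2ry14 in 6 and P2rx3 in 1.

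P2rx2 and Entpd3 were found in the same SC-like cells. Of 23 WT SC-like cells, 14 held 10 counts of both, 6 of P2rx2 alone, 0 of Entpd3 alone and 3 of neither. As 20 of the 23 held P2rx2, a large overlap follows from the separate shares. The 10-count cut also depends on depth, and association within the type was not tested. The WT cells led by Vmo1 held both in 8, Entpd3 alone in 2 and neither in 1 of 11. RC-like WT cells differed, with both in 1, P2rx2 alone in 1, Entpd3 alone in 4 and neither in 11 of 17 cells. The median SC-like WT cell held 2 of the 10 members at 10 counts and the richest held 5, whereas 16 of 40 IMC-like WT cells held none.

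**Figure D2:**
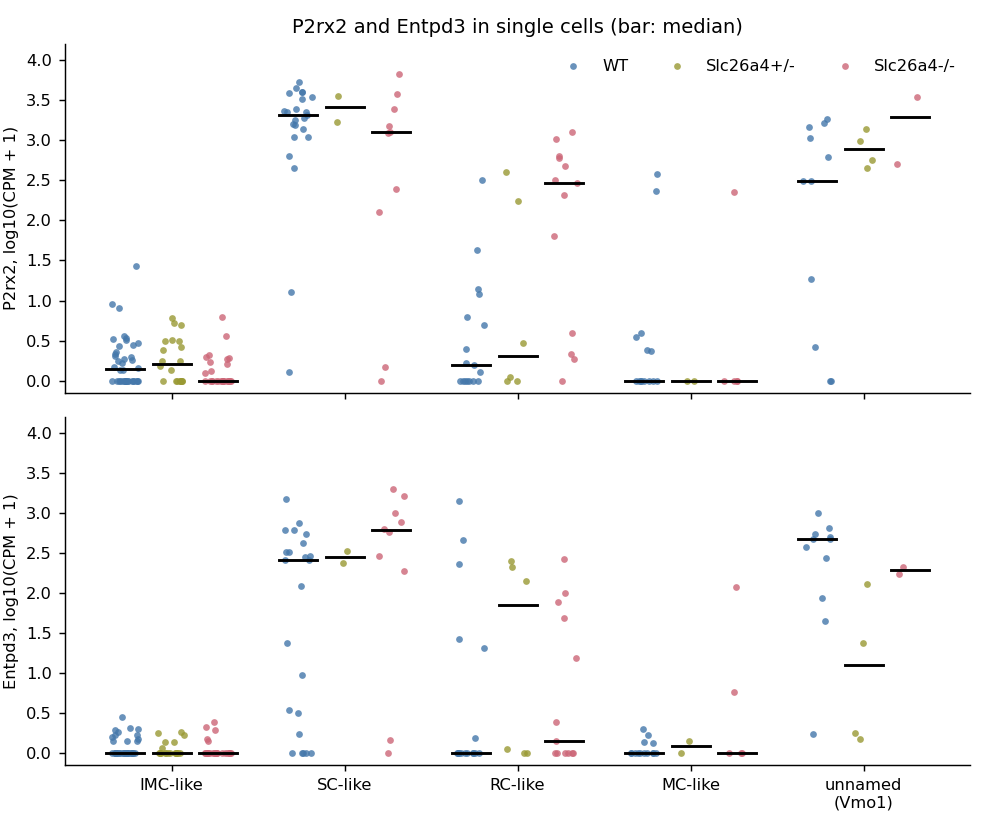
P2rx2 (top) and Entpd3 (bottom) in each cell as log10 of CPM + 1, by cell type and genotype, with a bar at the median. Both genes sit high in SC-like cells and in the unnamed cluster led by Vmo1 and near 0 in IMC-like cells, and 9 of 13 Slc26a4-/- RC-like cells lie above 50 CPM for P2rx2 against 1 of 17 WT cells.

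Correlation of log2(CPM + 1) over all cells, given as a description because the cells share cell type, depth and run date, placed P2rx2 nearest to Ptprz1 (r = 0.72), Lect1 (0.72), Krt8 (0.67), Krt18 (0.66) and Kif19a (0.65). Krt8 and Krt18 are keratins of epithelial cells, and Krt8, Krt18 and Kif19a were among the markers used for SC-like cells. Entpd3 was nearest to Spats2l (0.69), Lect1 (0.67), Cdon (0.67), P2rx2 (0.64) and Ptprz1 (0.64). P2ry2 was nearest to Ppp2r2b (0.52), Epcam (0.51), St14 (0.51), F11r (0.50) and Prom2 (0.50). Epcam, an adhesion molecule of epithelia, had WT means of 1624 CPM in SC-like and 4.12 CPM in IMC-like cells, so P2ry2 went with genes of the epithelial types.

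The long form of P2rx2 was the larger part of its RNA. In 19 WT SC-like cells with at least 100 P2rx2 counts, transcripts that keep the stretch of 69 codons took 61.7% of the coding counts, the short form took 34.6% and ENSMUST00000200037.4, which lacks 90 codons there, 3.64%. Single cells ranged from 0 to 53.3% for the short form with a median of 30.6%, and it exceeded the long form in 1 of the 19 cells. Transcripts with the stretch of 12 codons took 14.96%. The forms were told apart by the authors' estimated counts, which also depend on how the transcripts differ at their 5′ ends.

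In SC-like cells the ranges of the genotypes overlapped, and RC-like cells spread more widely. The short form took 32.2% in 7 Slc26a4-/- SC-like cells (12.3 to 48.4%) and 38.6% in 2 Slc26a4+/- cells. In 9 Slc26a4-/- RC-like cells it took 19.01% of the summed counts, 25.3% without the cell that held the most, and single cells ranged from 0 to 71.9%: the long form was above 90% in 4 of them and below the short form in 3. The short form took 88.2% in the 1 WT RC-like cell with 100 counts and 0% in the 2 Slc26a4+/- RC-like cells. The 6 WT cells led by Vmo1 had 21.3%, with a median of 43.2% and a range of 0.25 to 75.2%. Of their coding counts 55.9% came from 1 cell, and the share was 47.9% without it. Cells with less P2rx2 rest on fewer copied molecules, and the spread between them was not tested.

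**Figure D3:**
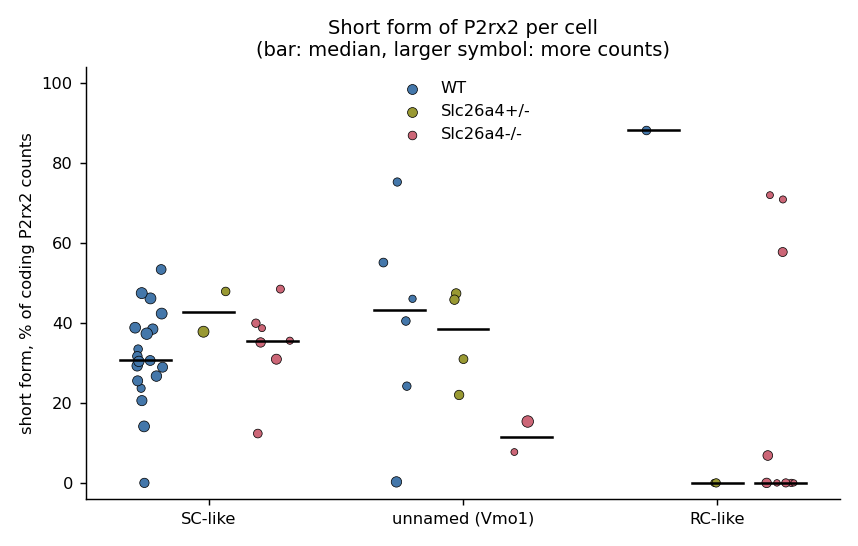
Share of the P2rx2 coding counts taken by the short form, in percent, for each cell with at least 100 P2rx2 counts, by cluster and genotype, with a bar at the median and symbols that grow with the cell's P2rx2 counts. WT SC-like cells lie between 0 and 53.3% around a median of 30.6%, and Slc26a4-/- RC-like cells range from 0 to 71.9%.

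Entpd3 was mostly 1 transcript, and P2ry2 and P2rx4 were spread over more. ENSMUST00000047687.7 held 97.5% of the Entpd3 counts in WT SC-like cells and 96.5% in RC-like cells. ENSMUST00000037540.4 held 78.9% of the P2ry2 counts in MC-like cells and 47.2% in SC-like cells, where ENSMUST00000207916.1 held 34.7%. ENSMUST00000081554.12 held 50.5% of the P2rx4 counts in IMC-like cells and 56.1% in MC-like cells.

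The comparison of genotypes asked how cells respond to the loss of pendrin. Slc26a4 itself did not separate the labels: SC-like cells had means of 912 CPM in WT, 511 CPM in Slc26a4+/- and 156.6 CPM in Slc26a4-/- cells, whereas RC-like cells had 989, 568 and 1222 CPM. A gene total cannot show a deleted or disrupted exon, so the genotypes stand as the labels give them. Genes at 10 CPM or more in either genotype were compared within a cell type as the log2 ratio of their means after adding 1 CPM to each, which understates the change of low genes, and a ratio past 2-fold was called.

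Many genes passed that threshold, so a call alone says little. In IMC-like cells 12.7% of the genes were called higher and 17.4% lower in Slc26a4-/- cells, in SC-like cells 22% and 32.2%, in RC-like cells 21.7% and 28.5% and in MC-like cells 26.1% and 26.4%. The median log2 ratio of all genes was -0.11, -0.22, -0.11 and 0.02 in the 4 types. The members were called 14 times in 22 comparisons with Slc26a4-/- cells, 8 higher and 6 lower. With run date 2 left out they were called 6 times in 13 comparisons, and within run date 4 alone 5 times in 8.

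**Figure D4:**
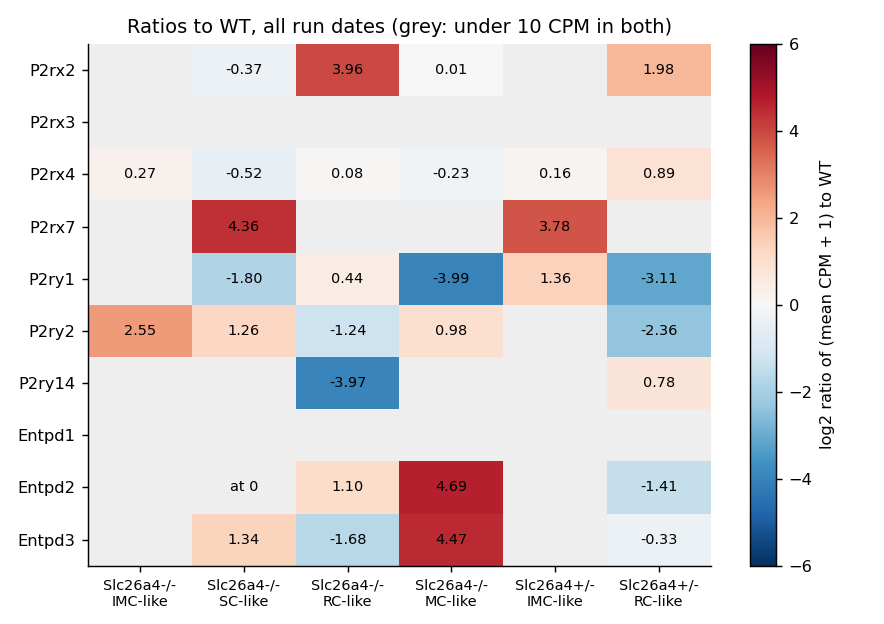
Log2 ratios of mean CPM + 1 to WT for the 10 genes, by genotype and cell type over all run dates. Grey marks genes under 10 CPM in both genotypes, and "at 0" marks Entpd2, which had no count in 10 Slc26a4-/- SC-like cells. P2rx2 in Slc26a4-/- RC-like cells stands at 3.96, and P2rx7 in Slc26a4-/- SC-like cells, at 4.36, comes from 1 cell.

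P2rx2 was higher in Slc26a4-/- than in WT RC-like cells. The 13 Slc26a4-/- cells ran from 0 to 1256 CPM with a median of 295.4 and a mean of 377 CPM, and 9 of the 13 held 10 counts (69.2%, interval 38.6 to 90.9%). The 17 WT cells ran from 0 to 319 CPM with a median of 0.56 and a mean of 23.3 CPM, and 2 of the 17 held 10 counts (11.8%, interval 1.46 to 36.4%). The log2 ratio was 3.96 over all run dates, 8.90 within run date 2, which held 1 WT cell, and 2.31 within run date 4, and it was 6.02 without the WT cell at 319 CPM. After thinning to 100000 counts, P2rx2 was found in 10 of 13 Slc26a4-/- and 4 of 16 WT cells. The 6 Slc26a4+/- cells had a mean of 95.05 CPM and a median of 1.05 CPM, with 3 at 10 counts.

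By session, the genotypes did not overlap. The 6 Slc26a4-/- sessions had means of 147.7, 205.1, 267.6, 348, 598 and 1256 CPM, and the 12 WT sessions ran from 0 to 106.6 CPM with a median of 1.08. All 6 lay above all 12. Of 10125 genes, 2 (0.0198%) had every Slc26a4-/- session above every WT session in RC-like cells, P2rx2 and the predicted gene Gm4735, a name found by this count and not chosen beforehand. The mean difference of log2 session means was 6.68 (exact permutation test over sessions, two-sided, p = 0.000107735, Benjamini-Hochberg adjusted over 3 comparisons 0.000323206). As all 6 sessions lay above all 12, this p is the smallest that the two-sided test can give. With labels exchanged only within run dates the exact permutation p was 0.02, the smallest that its 50 arrangements allow. No collection day held RC-like cells of both WT and a mutant genotype, so day and genotype cannot be told apart in these cells. These tests were chosen after the values were seen, so the adjustment over 3 comparisons does not cover the other members and types that were looked at. They treat sessions as separate mice, which the labels do not state. The 12 WT sessions held 17 cells and the 6 Slc26a4-/- sessions 13, so most WT session means are the value of 1 cell. The only WT session of run date 2 was 1 cell at 0 CPM.

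**Figure D5:**
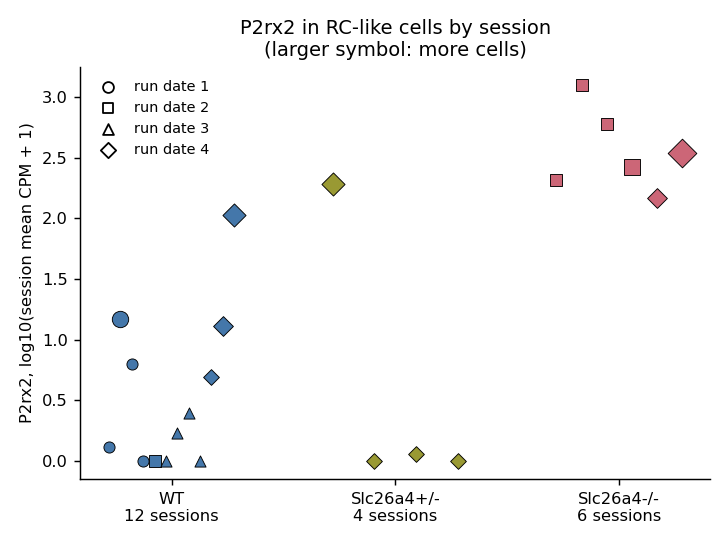
P2rx2 in RC-like cells as log10 of the session mean CPM + 1, by genotype, with the run date as the shape and larger symbols for more cells. The 6 Slc26a4-/- sessions, from run dates 2 and 4, lie between 147.7 and 1256 CPM, above the 12 WT sessions, and 1 Slc26a4+/- session of 3 cells stands at 190 CPM above 3 sessions near 0.

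Other measures of the same cells limit this difference. Fitted on summed counts of each session across all genes with run date as a term, P2rx2 had a log2 fold change of 3.31 (edgeR's quasi-likelihood test, p = 0.300, Benjamini-Hochberg adjusted p = 1) or 2.59 (DESeq2, adjusted p = 0.920), and edgeR called 0.00% of the genes in the comparisons of RC-like sessions of either mutant genotype. At an unadjusted edgeR p below 0.05 stood 649 genes for Slc26a4-/- and 1272 for Slc26a4+/- RC-like sessions, and DESeq2 called 65 genes higher and 45 lower for Slc26a4-/-. When cells were typed by their highest marker score instead of by cluster, the log2 ratio was 0.95: 30 WT cells then counted as RC-like with a mean of 185.3 CPM, among them cells of the Vmo1 and Galntl6 clusters with up to 2676 CPM. Of the spindle markers, Anxa1 and Wfdc18 had low medians in both genotypes of RC-like cells, whereas Krt8 was higher in the Slc26a4-/- cells. The study lists both Anxa1 and Wfdc18 as lower in pendrin-expressing cells of Slc26a4-/- mice. Among SC-like cells of run date 2, mean Anxa1 was 967 CPM in 10 Slc26a4-/- and 8416 CPM in 2 WT cells. Anxa1 and Wfdc18 are thus not markers free of genotype. In the 9 Slc26a4-/- cells at 50 CPM of P2rx2 or more, median Anxa1 was 0.34 CPM and Wfdc18 0, and median Epyc was 8973 and Lum 1197 CPM. Median Krt8 was 192.97 CPM there, 156.9 CPM in the other 4 Slc26a4-/- cells and 3.53 CPM in the 16 WT cells under 50 CPM. All 8 spindle markers were found in some RC-like cell of each genotype. Their summed level ran from 17.7 to 5445 CPM in WT (median 967) and from 8.59 to 4156 CPM in Slc26a4-/- RC-like cells (median 1664). In SC-like cells the summed level ran from 12982.5 to 121155 CPM in WT (median 46646) and from 8687 to 68283 CPM in Slc26a4-/- cells (median 16668). The part of these differences in the P2rx2 difference was not tested.

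In SC-like cells P2rx2 was called in neither direction. The 10 Slc26a4-/- cells ran from 0 to 6682 CPM with a median of 1253 and a mean of 1725 CPM, which put the log2 ratio at -0.37, and 8 of the 10 held 10 counts. The 2 Slc26a4+/- cells stood at 1709 and 3520 CPM. The ranges overlapped throughout. All 10 Slc26a4-/- SC-like cells came from run date 2, which held 2 WT SC-like cells at 1380 and 1604 CPM, so the comparison within a run date rests on those 2 cells. On the 1 collection day that held SC-like cells of both genotypes, 1 WT cell stood at 1380 CPM of P2rx2 and 544 CPM of Entpd3, and 1 Slc26a4-/- cell at 125.8 and 1626 CPM.

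Entpd3 had a higher mean in Slc26a4-/- SC-like cells, within overlapping ranges. The 10 cells ran from 0 to 1954 CPM with a median of 603 and a mean of 701 CPM, against a WT mean of 275.9 CPM, a log2 ratio of 1.34. Against the 2 WT cells of run date 2, which stood at 544 and 604 CPM, the log2 ratio was 0.29. No difference between session means passed an exact permutation test over 4 Slc26a4-/- and 12 WT sessions (two-sided, p = 0.441, adjusted over 3 comparisons 0.535). In RC-like cells the mean was 39.1 CPM in Slc26a4-/- and 126.9 CPM in WT cells, a log2 ratio of -1.68 that became -0.23 without the WT cell at 1424 CPM and turned to 1.17 and 2.73 within run dates 2 and 4.

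The P2Y receptors gave ratios that hung on single cells. P2ry2 was higher in Slc26a4-/- SC-like cells by 1.26 on the log2 scale (266.5 against 110.8 CPM), and this turned to -0.34 without 1 cell at 1881 CPM. Over sessions the mean difference of log2 means had the other sign, -1.31 (exact permutation test, two-sided, p = 0.535, adjusted over 3 comparisons 0.535). In MC-like cells all 5 Slc26a4-/- cells held 10 counts, at 35.4 to 1172 CPM with a mean of 535 CPM, against 8 of 14 WT cells and 270.9 CPM, a log2 ratio of 0.98 that was not called. In RC-like cells the ratio was -1.24, and 0.17 without a WT cell at 1037 CPM. In IMC-like cells it was 2.55, from 2 of 26 Slc26a4-/- cells. P2ry1 was called lower in MC-like (-3.99) and SC-like cells (-1.80), as was P2ry14 in RC-like cells (-3.97). The signs of P2ry1 in SC-like cells and of P2ry14 turned, to 1.499 and 0.16, when 1 WT cell was left out.

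The remaining calls for Slc26a4-/- cells were of the same kind. P2rx7 in SC-like cells (4.36) came from 1 cell at 381 CPM. Entpd2 had no count in the 10 Slc26a4-/- SC-like cells and a mean of 24.9 CPM in WT. That mean was 57.1-fold a floor of 3 counts over the summed depth of those 10 cells (0.437 CPM). As the mean is taken over cells and the floor over summed counts, this is no lower bound on the difference. Only 2 WT cells held 10 counts, and the WT cells of run date 2 held none. Entpd2 was higher in RC-like cells (1.10, 4 of 13 against 3 of 17 cells), and Entpd2 and Entpd3 were called higher in MC-like cells (4.69 and 4.47) from 2 cells and 1 cell.

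In Slc26a4+/- mice, 6 of 10 comparisons were called. The background was 11.3% higher and 18.4% lower in IMC-like cells and 24.8% higher and 32.5% lower in RC-like cells. P2rx7 was higher in IMC-like cells, at 32.4 against 1.43 CPM (log2 ratio 3.78), with 3 of 20 Slc26a4+/- and 1 of 40 WT cells at 10 counts and a highest cell of 376 CPM. P2ry1 was higher in IMC-like cells (1.36), a sign that turned without 1 cell. In RC-like cells P2rx2 was higher (1.98), and P2ry1 (-3.11), P2ry2 (-2.36) and Entpd2 (-1.41) were lower. All 40 Slc26a4+/- cells came from run date 4. Within it Entpd2 turned to 0.61, at 8.11 against 4.99 CPM, and it was 1.11 by edgeR and 1.43 by DESeq2 over sessions. The P2rx2 ratio was 0.70 within run date 4, and it turned to -0.18 with cells typed by marker score and to -0.87 in the edgeR fit over sessions.

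Tests across all genes on session sums called no member by edgeR. In IMC-like cells edgeR called 0.00% of the genes for Slc26a4+/- (1604 genes at an unadjusted p below 0.05) and 0.0274% for Slc26a4-/- cells, in SC-like cells 0.0180% and in MC-like cells 0.0400% for Slc26a4-/- cells. At an unadjusted edgeR p below 0.05 stood 3 of 9 members tested for Slc26a4+/- and 4 of 9 for Slc26a4-/- IMC-like sessions, and 0 of 7, 7, 7 and 4 in the other comparisons. Over all genes, 2023 of 14618 stood there for Slc26a4-/- and 1604 for Slc26a4+/- IMC-like sessions. DESeq2 called 1 member, P2rx7 in Slc26a4+/- IMC-like sessions (log2 fold change 8.17, SE 2.22, adjusted p = 0.0104), where it called 2.76% of the genes.

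Around these receptors and enzymes stood 56 other purinergic genes on lists chosen by role. Of 9 other P2 receptors, P2rx6 alone reached 10 CPM in a named WT type (10.2 CPM in SC-like cells), and 6 had no count in any named WT cell. Of 4 adenosine receptors, Adora1 alone did, at 90.6 CPM in MC-like cells. Of 13 other nucleotide and nucleoside hydrolases 11 did, led by Alpl, tissue-nonspecific alkaline phosphatase, at 1583 CPM in IMC-like cells (40 of 40 cells with 10 counts), Acpp, prostatic acid phosphatase, at 1033 CPM in SC-like cells (20 of 23) and Entpd4, an enzyme of the Golgi and lysosome, at 357 CPM in MC-like cells. The enzymes that act on extracellular nucleotides thus had their highest means in different named types. These were SC-like cells for Entpd3 and Acpp, RC-like cells for Enpp1, at 213.7 CPM, and IMC-like cells for Alpl. For Entpd3 the lead over RC-like cells was less than the spread of session means in either type.

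Genes of ATP release and of nucleoside uptake followed. Of 14 release genes 8 reached 10 CPM, with the connexins Gjb6 at 3321 and Gjb2 at 502 CPM in IMC-like cells and Lrrc8d, a subunit of volume-regulated anion channels, at 721 CPM in MC-like cells. RC-like cells came next for both connexins, at 990 CPM for Gjb6 and 432 CPM for Gjb2. Slc29a1, the equilibrative nucleoside transporter, stood at 281.9 CPM in IMC-like cells, Slc29a3 at 133.8 CPM in RC-like and 102.3 CPM in MC-like cells and Slc29a2 at 36.5 CPM in MC-like and 33.5 CPM in IMC-like cells, the 3 of 7 transporters that reached 10 CPM. Of 9 genes downstream of P2Y receptors 7 did. Itpr2, a calcium release channel of the endoplasmic reticulum, was at 1175 CPM in MC-like cells, Itpr1 at 429 CPM in RC-like and 375 CPM in SC-like cells and Plcb4, a phospholipase driven by Gq, at 164.1 CPM in SC-like and 146.2 CPM in RC-like cells.

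Between genotypes, and beside the shares of all genes given above, 6 of 26 tested were higher and 4 lower in Slc26a4-/- IMC-like cells, 4 and 9 of 27 in SC-like, 8 and 7 of 26 in RC-like and 9 and 5 of 24 in MC-like cells. In Slc26a4+/- cells 3 of 26 were higher and 3 lower in IMC-like, and 4 and 8 of 26 in RC-like cells. Over sessions edgeR called 1 of them, Alpl. DESeq2 called 5 in Slc26a4-/- IMC-like sessions (Alpl and Gjb6 lower, Plcb4, Lrrc8d and Itpr3 higher), 2 in SC-like sessions (Entpd4 lower, Adk higher) and 3 in MC-like sessions (Acpp and Entpd6 lower, Plcb3 higher). The log2 ratio of means had the other sign for Adk in SC-like cells, at -0.66 against a DESeq2 log2 fold change of 17.5. For Entpd6 in MC-like cells the ratio was 1.82 against -20.1, and for Lrrc8d in IMC-like cells -0.036 against 2.43. The other called genes kept their sign, and these turns were not explained. Alpl ran from 0.70 to 1203 CPM in 26 Slc26a4-/- IMC-like cells, with a median of 129 and a mean of 243.2 CPM. In 40 WT cells it ran from 142.1 to 5442 CPM, with a median of 1535 and a mean of 1583 CPM. Its mean was 2158 CPM in 20 Slc26a4+/- cells. Over sessions the edgeR log2 fold change was -3.14 (adjusted p = 0.0105) and that of DESeq2 -3.52 (SE 0.62, adjusted p = 8.28e-07), while session means overlapped, from 28.1 to 578 CPM in Slc26a4-/- and 142.1 to 2862 CPM in WT. The study's own comparison of genotypes in these cells lists Alpl, so its direction here is not independent evidence.

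Acpp was lower in Slc26a4-/- SC-like cells (log2 ratio -3.50), at 90.5 against 1033 CPM, with 2 of 10 against 20 of 23 cells at 10 counts. Its session means ran from 0 to 177.8 CPM in Slc26a4-/- and from 1.49 to 3850 CPM in WT cells, and edgeR gave p = 0.000185 and an adjusted p of 0.343. The summed level of the spindle markers was also lower in these Slc26a4-/- cells, with a median of 16668 CPM against 46646 CPM in WT, and its part in the Acpp difference was not tested.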

How the data were processed

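The authors aligned the reads of each cell to the mm10 transcriptome (GRCm38) with Kallisto, whose version is not given in the sources used here. The authors deposited estimated counts and TPM for 98492 transcripts per cell, and a gene table of estimated counts, as whole numbers, for 47752 genes, made with a script of their own. In the cell that departed most, 99.18% of the genes equalled the sum of truncated transcript counts. Of 298 columns in that table, 17 are of no sample studied here and were not used. Positions and the gene of each transcript came from GENCODE M21, which lacked 1376 of the transcripts (0.691% of the counts in the median cell), and TPM were summed per gene. Nextera libraries keep no strand.

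Clustering used Seurat 5.3.0 in R 4.3.3: genes seen in 3 or more cells, a scale factor of 10000, 2000 variable genes of which 1894 were used after 555 genes (the members, the pathway lists and genes of the study's genotype comparisons) were left out, 10 PCs and a resolution of 0.8. To be named, a cluster needed 1 marker list to score highest in 80% or more of its cells, at least 3 of that list's markers to be found in most cells, and 10 leading genes with no more markers of another type. Over all cells, 25 had their highest scores within 0.25 of each other. Names rebuilt here can differ from the study's. No cell was filtered out, and since cells were picked singly no doublet caller was run. No animal is named, so cells are not replicates and genotypes were compared by log2 ratios with a pseudocount of 1 CPM.

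As an alternative, counts were summed over collection sessions, read from the run date and a number taken as the day in each profile's name. There were 23 WT, 4 Slc26a4+/- and 10 Slc26a4-/- sessions, and 1 SC-like session sum under 100000 counts was left out. Sums were fitted with edgeR 4.0.16 (quasi-likelihood test) and DESeq2 1.42.0, with run date as a term and Benjamini-Hochberg adjustment over all genes at 0.05. The edgeR fit was tested on simulated data, and the DESeq2 fit was not. The simulation changed 200 genes, gave all genes the same dispersion and had no effect of run date. Session means of the members spread more widely, with many near 0. The simulation therefore cannot show how often edgeR misses a change in these data. Scaling by scran 1.30.0 was another alternative. Other values used Python 3.11.15, numpy 2.4.6, pandas 2.3.3, scipy 1.17.1 and matplotlib 3.10.9. Binomial intervals are at 95% and, as PCR copies carry no molecular identifiers, cover counting error only.

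The members and lists were chosen with earlier results of these data known. Named were all 10 members, up to 3 genes of each pathway list by level and up to 3 by genotype difference, the 5 genes most correlated with the 3 highest members, and Slc26a4.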

Additional observations from a re-analysis of the deposited data

Results flagged for a closer look

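Session means were searched for values far from the rest of their group (Dixon's test at 95%, on log2 of CPM + 1). Chance passes about 1 of 20 groups of normally distributed values, a rate that does not hold for groups with most sessions at 0. Of 30 groups of 4 to 10 sessions at 10 CPM or more, 10 held such a value. In Slc26a4-/- sessions these were Entpd2 in MC-like cells, with a highest session of 63.5 CPM above 3 sessions at 0, Entpd2 in RC-like cells with a highest session of 132.5 CPM above 5 at 0, P2rx2 in MC-like cells with a highest session of 224.4 CPM above 3 at 0, and P2rx7 in SC-like cells with a highest session of 381 CPM. P2rx4 in Slc26a4-/- IMC-like cells had a lowest session of 0 CPM below a median of 74.3 CPM.

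In Slc26a4+/- RC-like cells, which fall into 4 sessions, the highest session stood apart for P2rx2 (190 CPM), P2rx4 (255.7 CPM), P2ry14 (81.6 CPM) and P2ry2 (103.1 CPM). P2ry1 in WT MC-like cells had a highest session of 80.6 CPM above a median of 1.201 CPM. Each of the 10 values was given by a session of 1 to 5 cells, and no explanation was tested.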

How the results depend on the processing

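The lead of P2rx2 in WT SC-like cells over the next named type (log2 5.62) ran from 5.17 to 6.48 when a run date was left out, and was 3.22 when cells were typed by their highest marker score. At a level of 50 CPM, 4 members counted as present in place of 7. The calls for Slc26a4-/- cells (14 of 22) ran from 6 to 18 when a run date was left out, 6 without run date 2, were 5 of 8 within run date 4, and 5 of 5 on collection days with both genotypes. With sessions as samples edgeR called 0 and DESeq2 0 of 27 there, and for Slc26a4+/- cells edgeR called 0 and DESeq2 1 of 16, against 6 of 10 by ratio.

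Of single ratios to WT, 28 turned their sign under an alternative, and the cause was not tested. In Slc26a4+/- RC-like cells, Entpd2 became 1.43 by DESeq2, 1.11 by edgeR and 0.61 within run date 4, and P2rx2 became -0.18 by marker score, -1.28 by DESeq2 and -0.87 by edgeR. Without 1 cell or 1 run date, the ratio ran from -0.17 to 3.84 for P2ry1 in Slc26a4+/- IMC-like cells. In Slc26a4-/- RC-like cells it then ran from -5.09 to 2.27 for Entpd2, -2.61 to 0.61 for Entpd3, -4.90 to 0.39 for P2ry14 (0.16 without 1 WT cell) and -1.86 to 0.28 for P2ry2 (0.17 without 1 WT cell), in SC-like cells from -3.68 to 1.75 for P2ry1 (1.499 without 1 WT cell), -0.53 to 4.79 for P2rx7 and -0.34 to 1.67 for P2ry2, and in MC-like cells from -0.038 to 5.39 for Entpd2. The other turns in Slc26a4-/- cells were Entpd3 in RC-like cells at 1.31 by DESeq2, 2.21 by edgeR and 1.17 and 2.73 within run dates 2 and 4, P2ry14 there at 0.87 within run date 4, P2ry1 in SC-like cells at 19.34 by DESeq2, 5.49 by edgeR and 1.88 within run date 2, Entpd3 there at -0.65 by DESeq2, and Entpd3 in MC-like cells at -0.90 by marker score.

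No paired test was run, and the numbers in the sample titles count the cells and pair none of them. Collection days held both WT and Slc26a4-/- cells on 5 occasions, all in run date 2: 2 days for IMC-like cells, 1 for SC-like cells and 0 for RC-like and MC-like cells. On these days the log2 ratio was 4.63 for P2ry2 in IMC-like cells, and -3.45 for P2rx2 and 1.58 for Entpd3 in SC-like cells, from 1 cell of each genotype. Collection days, leaving out single cells, the session permutation tests and the alternatives for transcripts were chosen after seeing the data. P2rx2 in Slc26a4-/- RC-like cells stayed above WT in the alternatives run, at 0.95 to 8.90. The values rest on few cells, such as 5 MC-like and 10 SC-like Slc26a4-/- cells, and on unequal depth, with a median of 575066 counts in Slc26a4-/- and 1820555 in WT SC-like cells.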
